A study of Homo sapiens with 6 samples.

Results

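The activating transcription factor 4 (ATF4) programme and the amino acid response were followed through 41 genes: 6 transcription factors and their modulators, 6 enzymes of serine, glycine and one-carbon metabolism, 8 other amino acid and carbon enzymes, 8 amino acid transporters, 5 genes of growth control or of secreted and surface proteins, and 8 genes of transfer RNA (tRNA) charging and export. The genes were taken from a list of symbols and found in the table by Ensembl identifier, and the rule used no measured value. All 41 were among the 60612 identifiers, and all 41 passed the filter on low counts that left 17224 genes for testing. RNA came from U937, an established human line of monocyte-like leukaemia cells, wild type per the labels and labelled as acute myeloid leukaemia. One group of 3 libraries came from cells given 1 µM B2, a compound known here only by that code, and the other group of 3 from cells given DMSO, its solvent. All cells of both groups spent the 36 h in RPMI-1640 medium without serum, so serum withdrawal was shared by the controls. The series names the S100A9 protein as its target, and the question was which transcripts differ between B2 and DMSO.

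ATF4 is a basic leucine zipper transcription factor whose translation rises when the initiation factor eIF2 is phosphorylated, as happens on amino acid shortage, endoplasmic reticulum stress, haem shortage or double-stranded RNA. With partners of the C/EBP family it binds C/EBP-ATF response elements and switches on genes that import amino acids, synthesise them and load them onto tRNA, while CHOP (encoded by DDIT3), TRIB3 and CHAC1 mark a stronger or longer response. Because much of its control is translational, the amount of ATF4 mRNA is an incomplete measure of its activity, and its target transcripts are usually read instead.

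The C/EBP-ATF response element is shown first because it is the element through which ATF4 is known to act at its targets. The letters TGATGNAA, in which N is any base, were searched on both strands of RefSeq promoter windows of GRCh38.p14 that run from 250 bases before to 50 bases after each gene's start, and overlaps with other motifs were not considered. Promoters were listed for 33 members, and 8 of the 33 (24.2%) held the letters, beside 1270 of all 35116 promoters (3.62%). NUPR1, PSPH, SHMT2, ALDH1L2, GPT2, PYCR1, SLC7A11 and EIF4EBP1 had no entry. The letters were also in 3 of 10 promoters of further ATF4 or CHOP targets and 2 of 8 of other amino acid enzymes. Counts were 2 of 11 for other amino acid transporters, 2 of 12 for remaining cytosolic synthetases and 1 of 11 for other folate and methionine genes. They were 1 of 14 for mitochondrial synthetases, 1 of 17 for eIF2 genes and 0 of 11 for the XBP1 and ATF6 arm. Differences between these shares were not tested. Each window of 30 bases below is written 5′ to 3′ on the strand on which the motif reads forward, with the motif in capitals. Position 1 is the first transcribed base and -1 the base before it.
ASNS: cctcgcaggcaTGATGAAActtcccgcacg
CHAC1: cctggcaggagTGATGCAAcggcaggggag
SLC3A2: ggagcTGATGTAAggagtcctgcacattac
SLC7A1: gggcgcactgcTGATGAAAcctggcgccgg
AARS1: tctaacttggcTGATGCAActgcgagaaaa
NARS1: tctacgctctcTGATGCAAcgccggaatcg
CARS1: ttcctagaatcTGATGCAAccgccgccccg
MARS1: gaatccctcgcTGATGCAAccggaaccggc
The ASNS window is chr7:97872458-97872487 on the minus strand, which is the gene's own, and its motif lies at -68 to -61. CHAC1 has its window at chr15:40953251-40953280, minus strand and opposite to the gene, with the motif at -209 to -202. The SLC3A2 motif is at 38 to 45 on the opposite strand, in chr11:62881719-62881748, and that of SLC7A1 is at 8 to 15 on the gene's strand, in chr13:29595663-29595692. Of the 4 synthetase genes, AARS1 has the motif at -187 to -180 (chr16:70289675-70289704, plus strand, opposite to the gene) and NARS1 at 15 to 22 (chr18:57621804-57621833, minus strand, the gene's own). CARS1 has it across the start, at -2 to 6 (chr11:3057407-3057436, plus strand, opposite to the gene), and so does MARS1, at -4 to 4 (chr12:57488053-57488082, minus strand, opposite to the gene). AARS1, NARS1, CARS1, MARS1 and CHAC1 carry the same form, TGATGCAA. A match describes these letters only, and no binding was measured.

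The deposited values were estimated counts, and the 6 libraries held between 61150740 and 78431054 of them. Levels are given as CPM (counts scaled to a common library total) after TMM scaling, and 3 counts corresponded to 0.0386 to 0.0537 CPM. Nothing in the labels ties the 3 libraries of a group to separate cultures, and p-values here rest on the spread between libraries, which may be technical. All 16 myeloid markers passed the filter, and their summed level was 6314 to 10207 CPM in the libraries numbered 1 and 2 and 12524 and 13120 CPM in those numbered 3. Of this, ITGB2 alone held 1558 to 2758 CPM and then 4357 and 5185 CPM. In both libraries numbered 3, 9 of the 16 were above the other 4 libraries (12.3% of all tested genes) and 2 below (12.1%). Summed T, B and NK cell markers reached 177 to 387 CPM, of which NKG7 alone held 169 to 376 CPM and the other 11 together 7.79 to 12.5 CPM, with CD3D, CD3E, CD3G, MS4A1 and KLRD1 at 0 counts in all libraries. In such bulk RNA, fewer cells of a type and less RNA per cell cannot be told apart.

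Most of the programme was well expressed in these cells whatever the treatment. On a scale of CPM per kilobase of exon, averaged over the 6 libraries, 29 of the 41 members were at 10 or above, 5 lay between 1 and 10, and 7 were below 1. EIF4EBP1, which encodes the translation repressor 4E-BP1, had a mean level of 235 CPM per kilobase (range 191 to 360). SLC1A5, the main glutamine transporter of many tumour lines, was at 225, and ATF4 itself at 211 (171 to 266). The ranges of these 3 overlapped, so their order was not separated. SHMT2, the mitochondrial serine hydroxymethyltransferase, followed at 132, ahead of AARS1, the alanyl-tRNA synthetase, at 94.2 and PSAT1, the second enzyme of serine synthesis, at 93.8. Exon length merged the exons of all annotated transcripts of a gene, so this order and the cuts at 10 and 1 depend partly on annotation. PHGDH, at 397 to 1172 CPM, was divided by 9217 bases and averaged 69.4. SHMT2, at 496 to 1031 CPM, was divided by 4838 bases. At the other end, asparagine synthetase (ASNS) averaged 0.669 CPM per kilobase, the cystine transporter SLC7A11 0.536 and the proline synthesis enzyme PYCR1 0.334. Lower still were NUPR1, a stress-induced chromatin-associated cofactor, at 0.255, the secreted glycoprotein STC2 at 0.147, the glycine transporter SLC6A9 at 0.0503 and the mitochondrial folate enzyme ALDH1L2 at 0.0257. ASNS, one of the best known ATF4 targets, stood at the 31.1 percentile of the tested genes while ATF4 stood at the 99.0. Exons of ASNS overlap those of AC079781.5 on the same strand, and exons of PYCR1 those of MYADML2. How shared reads were counted is not given, so the levels of ASNS and PYCR1 are uncertain. The plot of levels by role shows the spread of levels gene by gene.

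**Figure D1:**
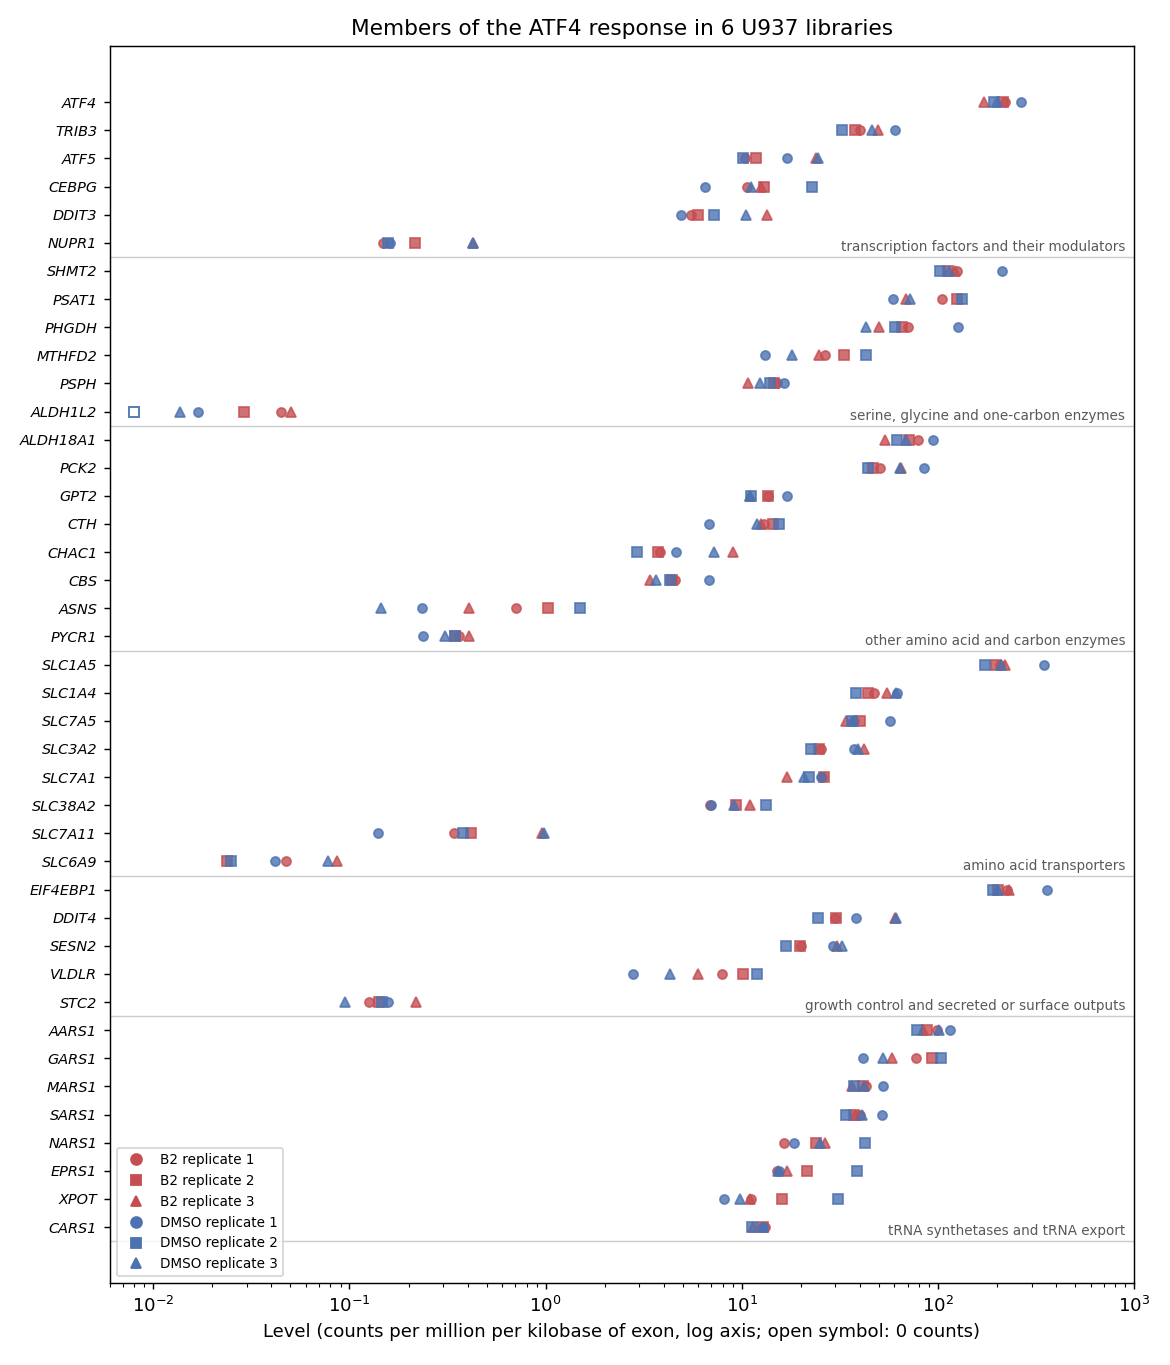
Level of each of the 41 genes in CPM per kilobase of exon (log axis), grouped by role, with 1 point per library and open symbols for 0 counts. The genes span EIF4EBP1 at a mean of 235 to ALDH1L2 at 0.0257, and the B2 and DMSO points of nearly every gene lie among each other.

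B2 against DMSO gave no called difference in any member. With edgeR's quasi-likelihood test and Benjamini-Hochberg adjustment at 0.05, 0 of the 41 members and 0 of all 17224 genes (0.0%) were called, and the same 0 of 41, with a background of 0.0%, came from the fit that takes the replicate number as a block. At an unadjusted p below 0.05 there were 0 members, beside 85 of all genes (0.493%). DESeq2 and limma-voom also called 0 members, and limma-voom left 1 member at an unadjusted p below 0.05. The estimates were positive for 16 members and negative for 25, with a median log2 fold change of -0.11 beside -0.08 over all tested genes. The 95% confidence interval lay within a 2-fold change in either direction for 21 of 41 members (51.2%) and for 36.6% of all tested genes, and for the other 20 members it reached past a 2-fold change. With the replicate number as a block, 33 of 41 intervals (80.5%) and 58.2% of those of all tested genes lay within it, and the members' median SE fell from 0.34 to 0.26. One library set much of the sign, since 25 of the 41 estimates changed sign without DMSO replicate 1 and the members' median then became 0.02.

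**Figure D2:**
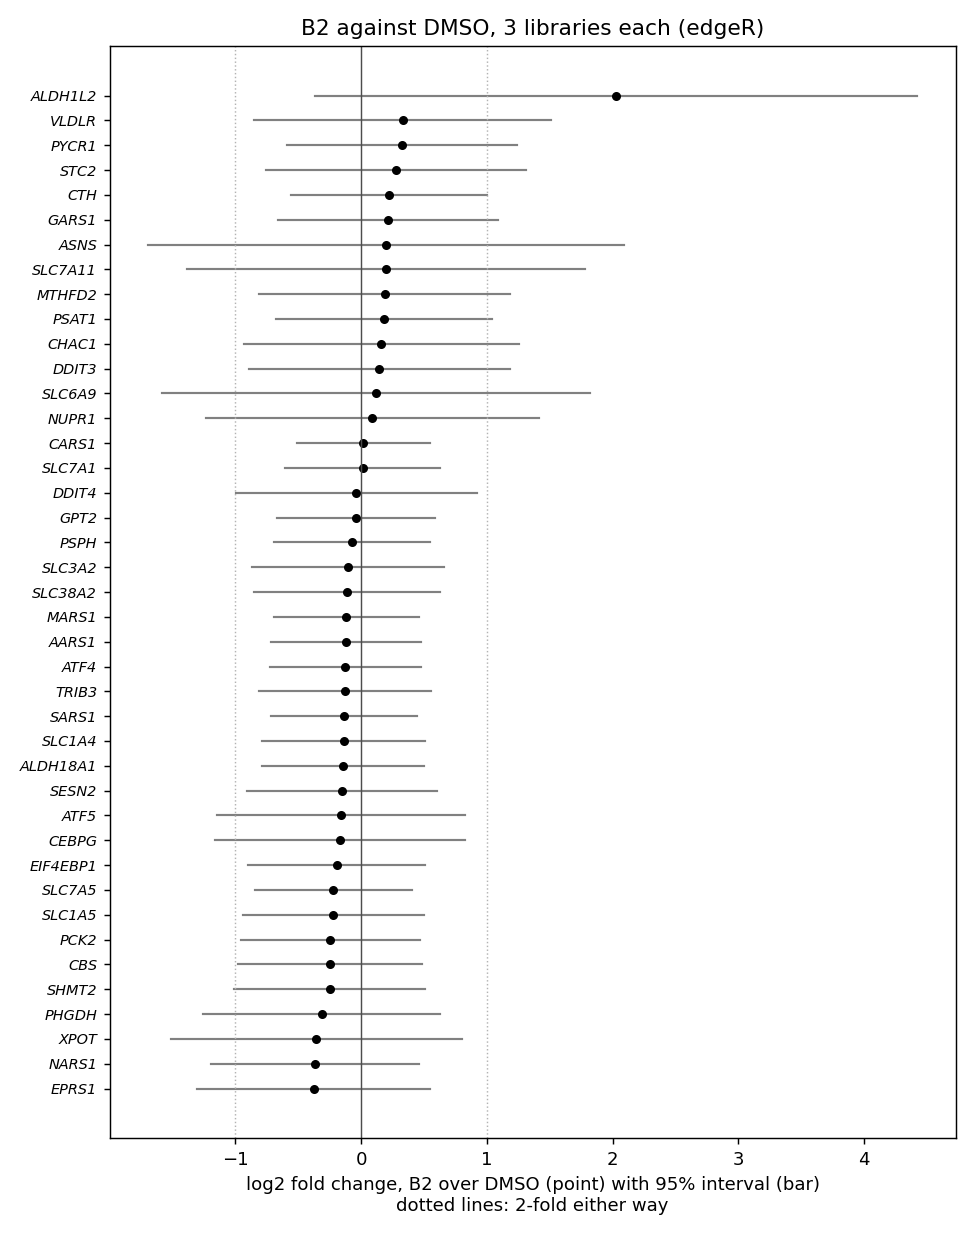
Log2 fold change of B2 over DMSO for each member with its 95% confidence interval from edgeR's quasi-likelihood fit (n = 3 libraries per group). Every interval includes 0, and the estimates run from -0.38 for EPRS1 to 2.03 for ALDH1L2, whose interval is also the widest.

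Among the transcription factors, ATF4 was at 555, 537 and 431 CPM in B2 replicates 1, 2 and 3 and at 669, 488 and 505 CPM in DMSO. The groups overlapped, with the highest value in DMSO replicate 1 and the lowest in B2 replicate 3, and the log2 fold change was -0.13 (SE 0.26, 95% interval -0.73 to 0.48). DDIT3, which encodes the pro-apoptotic factor CHOP, was at 7.22, 7.86 and 17.6 CPM with B2 against 6.41, 9.43 and 13.7 CPM with DMSO. TRIB3, a pseudokinase that dampens ATF4 and AKT signalling, ranged from 129 to 169 CPM with B2 and from 111 to 207 CPM with DMSO. Neither gene separated the groups, and the estimates for the 6 factors ran from -0.17 for CEBPG, a C/EBP partner of ATF4, to 0.15 for DDIT3.

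In serine and one-carbon metabolism, PHGDH, which commits glycolytic carbon to serine, was at 645, 601 and 463 CPM with B2 against 1172, 559 and 397 CPM with DMSO. The value of DMSO replicate 1 stood well above the other 5 libraries, and the fold change was -0.32 on the log2 scale (SE 0.41). SHMT2 had the same shape, at 605, 546 and 593 CPM with B2 against 1031, 496 and 548 CPM with DMSO. PSAT1 and MTHFD2, the mitochondrial enzyme that oxidises methylene-tetrahydrofolate, did the opposite in that library, and DMSO replicate 1 was the lowest of all 6 for both, at 130 CPM for PSAT1 and at 63.9 CPM for MTHFD2. PSPH, the last enzyme of serine synthesis, ranged only from 29.6 to 45.4 CPM across all libraries. In DMSO replicate 1, PHGDH and PSPH thus had their highest level and PSAT1 its lowest. Their longest transcripts had GC contents of 52.3%, 49.8% and 42.3%, in that order. With a smooth trend on GC content and length removed from each library, number 2 minus number 1 went from 0.68 to 0.03 in PSAT1. On the same log2 scale it went from -0.62 to -0.82 in PHGDH and from -0.15 to -0.38 in PSPH. The part of GC content in these levels was not tested.

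ALDH1L2 and PYCR1 were the 2 members whose groups did not overlap, beside 3.56% of all tested genes, and both were higher with B2. The same 2 were the members that went one way in 3 of 3 same-numbered pairs, beside 15.8% of all tested genes. ALDH1L2, which oxidises formyl-tetrahydrofolate in mitochondria, had 28, 18 and 26 counts with B2 and 8, 0 and 9 counts with DMSO. Its log2 fold change was 2.03 (SE 1.04, 95% interval -0.37 to 4.42), with an unadjusted p of 0.0868 and an adjusted p of 1.00 from edgeR, so the difference did not pass the test. Without DMSO replicate 2, the library at 0, the estimate was 1.41 (edgeR adjusted p = 0.777). With the replicate block it was 2.44 (SE 1.09), with an unadjusted p of 0.0453 and an edgeR adjusted p of 1.00. PYCR1 was at 1.04, 0.999 and 1.17 CPM with B2 against 0.681, 0.992 and 0.889 CPM with DMSO. The lowest B2 library exceeded the highest DMSO library by a margin far smaller than the spread within either group, and the log2 fold change was 0.32 (SE 0.40). Exons of ALDH1L2 overlap those of C12orf45 on the other strand. Exons of PYCR1 overlap those of MYADML2 on the same strand and of AC145207.4 on the other. Neither the strand setting of the counting nor its handling of shared reads is given, so reads of these pairs cannot be told apart. Summed epithelial markers also differed between the groups, at 34.3, 32.9 and 43.1 CPM with B2 against 4.34, 12.5 and 30.7 CPM with DMSO, with 0 of 7 called, and their part in the ALDH1L2 and PYCR1 differences was not tested.

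The remaining enzymes included ASNS, which makes asparagine from aspartate and glutamine. ASNS was at 3.16, 4.59 and 1.82 CPM with B2 against 1.04, 6.65 and 0.644 CPM with DMSO. The 10.3-fold span between DMSO replicates 2 and 3 contained every B2 value, and the log2 fold change of 0.20 came with an SE of 0.83. With the replicate block the estimate was 0.84 (SE 0.44, edgeR adjusted p = 1.00), and with the block and the GC and length trend removed 0.66. CHAC1, which degrades glutathione, was at 7.85, 7.71 and 18.5 CPM with B2 against 9.53, 6.03 and 14.9 CPM with DMSO. The other enzymes gave estimates between -0.25 for CBS, the first enzyme of transsulfuration, and 0.22 for CTH, the second.

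Of the transporters, SLC7A11 showed the largest spread, at 3.29, 4.02 and 9.24 CPM with B2 against 1.34, 3.66 and 9.46 CPM with DMSO. SLC3A2, the heavy chain that SLC7A11 and SLC7A5 need at the membrane, was at 131, 129 and 217 CPM with B2 against 193, 116 and 203 CPM with DMSO. In both genes the differences within a group were larger than those between the groups. SLC7A5, the leucine transporter light chain, ranged from 160 to 190 CPM with B2 and from 173 to 269 CPM with DMSO. The 8 transporters ran from -0.22 for SLC1A5 to 0.19 for SLC7A11 on the log2 scale, and 6 of the 8 intervals lay within a 2-fold change. SLC7A1, the cationic amino acid transporter, gave 0.01 (SE 0.27).

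The growth control genes SESN2 and DDIT4, both inhibitors of the kinase complex mTORC1, gave log2 fold changes of -0.15 (SE 0.33) and -0.04 (SE 0.42). EIF4EBP1 was at 241, 218 and 247 CPM with B2 against 386, 205 and 217 CPM with DMSO, again with DMSO replicate 1 above the rest. VLDLR, a lipoprotein receptor, was at 74.4, 94.2 and 55.7 CPM with B2 against 26.1, 112 and 40.4 CPM with DMSO, and gave 0.33 (SE 0.52). Of the tRNA genes, CARS1, the cysteinyl-tRNA synthetase, was the steadiest member, between 113 and 132 CPM in all 6 libraries, with a log2 fold change of 0.02 (SE 0.23, 95% interval -0.51 to 0.54). The exporter XPOT was at 81.8, 118 and 80.9 CPM with B2 against 59.4, 228 and 71.7 CPM with DMSO. EPRS1, the glutamyl-prolyl-tRNA synthetase, was at 82.1, 118 and 92.1 CPM with B2 against 84.5, 211 and 83.0 CPM with DMSO. DMSO replicate 2 stood above the other 5 libraries for both of these genes.

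Neighbouring parts of the pathway gave the same result for B2. None of the 19 genes for eIF2 kinases, eIF2 and its exchange factor and phosphatase subunits was called, and their median log2 fold change was -0.07. The 12 tested further ATF4 or CHOP targets had a median of -0.05, the 16 remaining cytosolic synthetase genes -0.22, the 17 mitochondrial synthetases -0.08 and the 13 other folate and methionine genes 0.03, each with 0 called. For 12 other amino acid transporters the median was -0.03, for 12 other amino acid enzymes -0.16 and for 11 genes of the XBP1 and ATF6 arm -0.14, again with 0 called, beside -0.08 over all tested genes. The smallest p in the folate list belonged to AMT, of the glycine cleavage system, at 0.799, 0.589 and 0.842 CPM with B2 against 1.36, 1.55 and 1.19 CPM with DMSO. Its groups did not overlap, and its log2 fold change was -0.88 (SE 0.40, edgeR adjusted p = 1.00).

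More genes differed between the replicate numbers, which both groups share, than between B2 and DMSO. In a test of the numbers with treatment in the model, edgeR called 461 of 17224 genes (2.68%) and 1 of 41 members, SLC7A11 (adjusted p = 0.0361), with ASNS at 0.0576. At an unadjusted p below 0.05, 15 of 41 members were found, beside 21.8% of all tested genes. The counts over all genes and over the members both moved when single libraries were left out, and each such fit kept only 1 library of that number. The call of SLC7A11 was lost without DMSO replicate 1 and without DMSO replicate 3. With a smooth trend on GC content and length removed from each library, a setting added after the data had been seen, 4 of 41 members were called, beside 5.06% of all genes: SLC7A11, DDIT3, ASNS and CHAC1. What the numbers stand for is not stated.

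Set against numbers 1 and 2, the libraries numbered 3 were higher in SLC7A11 by 1.70 on the log2 scale (SE 0.33, edgeR adjusted p = 0.0142). The 2 libraries numbered 3 held 9.24 and 9.46 CPM and the other 4 between 1.34 and 4.02 CPM, so the sets did not overlap. SLC7A11 was the 1 member called higher, beside 2.91% of all tested genes, and 0 members were called lower, beside 0.43%. Without DMSO replicate 3 the estimate was 1.32 and no member was called (adjusted p = 0.595 for SLC7A11), and with library totals in place of TMM its adjusted p was 0.0773. The count of members called moved with the library left out, and so did the count over all genes. Each such fit kept only 1 library of the number concerned.

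Both libraries numbered 3 were above the other 4 in 9 of 41 members, beside 12.3% of all tested genes: ATF5, DDIT3, NUPR1, CHAC1, SLC7A11, SLC3A2, SLC6A9, SESN2 and DDIT4. NUPR1 had 2.43 and 2.41 CPM there against 0.840 to 1.22 CPM in the others, a log2 difference of 1.33 (SE 0.38, edgeR adjusted p = 0.0954). CHAC1 had a difference of 1.10 (SE 0.28, edgeR adjusted p = 0.0584) and DDIT3 of 1.02 (SE 0.28, edgeR adjusted p = 0.0798). DDIT4 stood at 124 and 126 CPM against 50.5 to 78.5 CPM, and ATF5, a relative of ATF4, at 70.5 and 72.2 against 29.8 to 50.1 CPM. ATF4 itself did not share this shape, with 431 and 505 CPM in that pair and 488 to 669 CPM in the others. With the GC and length trend removed, 6 members were called higher, beside 4.55% of all genes: SLC7A11, CHAC1, DDIT3, DDIT4, ATF5 and NUPR1. The calls of these genes differed between settings: among 14 alternatives, SLC7A11 was called in 12, CHAC1 in 8, DDIT4 in 7, ATF5 and DDIT3 in 6 each and NUPR1 in 2. DESeq2 called CHAC1, DDIT3, DDIT4 and ATF5, limma-voom the same without DDIT3, and library totals none of them.

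Both libraries numbered 3 were below the other 4 in 5 of 41 members, beside 12.1% of all tested genes: PHGDH, PSPH, GPT2, CBS and SLC7A1. PHGDH was at 463 and 397 CPM there and at 559 to 1172 CPM in the others, a log2 difference of -0.74 that did not pass the test (edgeR adjusted p = 0.260). ASNS gave -1.61 (SE 0.48, edgeR adjusted p = 0.112), and was the 1 member called lower once the GC and length trend was removed, beside 2.19% of all genes. Its value in B2 replicate 3, 1.82 CPM, lay above the 1.04 CPM of DMSO replicate 1, so the sets overlapped. Among 14 alternatives, ASNS was called lower in 5 and PHGDH in 1.

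**Figure D3:**
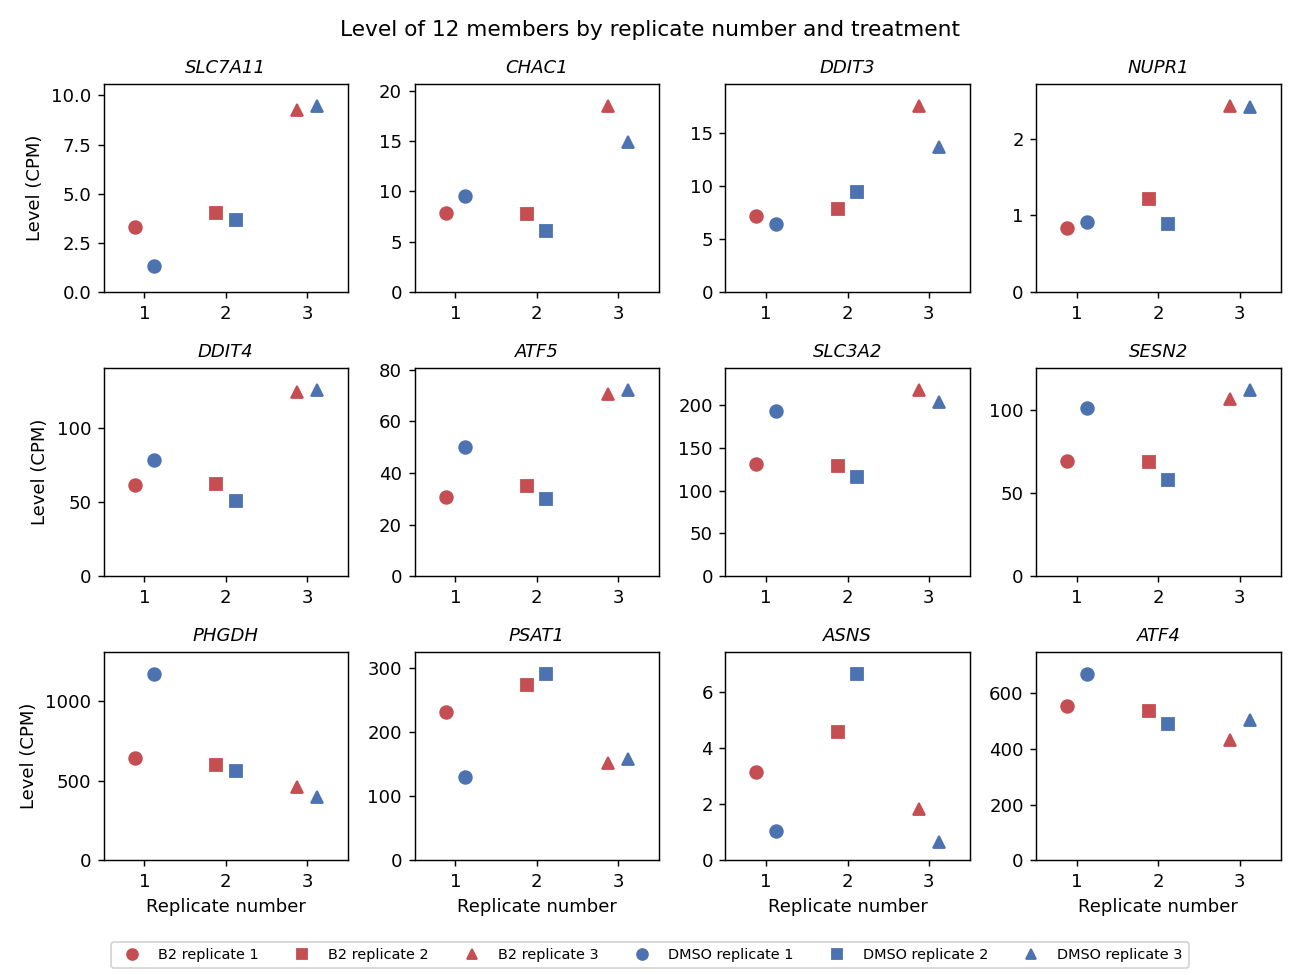
CPM of 12 members in each library (linear axis) by replicate number, with B2 and DMSO as separate symbols. SLC7A11, CHAC1, DDIT3, NUPR1, DDIT4 and ATF5 are highest in both libraries numbered 3, whereas ATF4 is not, and ASNS moves the most between DMSO libraries.

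Other genes moved with the same pair of libraries. Summed macrophage markers reached 1507 and 1692 CPM there, against 64.3 to 131 CPM in the other 4. Of the 11 markers listed, 8 were tested and 7 were called higher, beside 2.91% of all tested genes, with MRC1 at 0 counts in all libraries. Their part in the differences of SLC7A11 and the other members was not tested. IL4I1, chosen after its values were seen because its exons overlap those of ATF5 on the other strand, was at 118 and 116 CPM against 3.97 to 9.98 CPM, and its part in the ATF5 values was not tested. NUP62, the other gene there, ranged from 173 to 240 CPM. Exons of MARS1 and DDIT3 likewise overlap on opposite strands, and 16 of the 41 members overlap some other gene, which leaves their levels uncertain.

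In the neighbouring lists, EIF2AK2, which encodes the kinase PKR that phosphorylates eIF2 on double-stranded RNA, was the 1 of 19 eIF2 genes called between numbers, beside 2.68% of all tested genes. It stood at 57.4 and 44.3 CPM in number 3, against 12.8 and 19.5 CPM in B2 replicates 1 and 2 and 7.33 and 38.4 CPM in DMSO replicates 1 and 2. Of the further targets, GDF15, a secreted stress cytokine, was higher in number 3 by 2.74 on the log2 scale (SE 0.57, edgeR adjusted p = 0.0196), at no more than 2.03 CPM. CEBPB, another C/EBP factor, was higher by 1.10 (SE 0.25, edgeR adjusted p = 0.0315). SLC7A7 and SLC43A2, which carry cationic and large neutral amino acids, were the 2 of 12 other transporters called higher, by 1.74 and 1.43, beside 2.91% of all tested genes. Without B2 replicate 3, EIF2AK2, GDF15, CEBPB, SLC7A7 and SLC43A2 all missed the threshold (edgeR adjusted p of 0.0676 to 0.830). EIF2AK2, CEBPB, SLC7A7 and SLC43A2 also missed it without DMSO replicate 3, EIF2AK2 without DMSO replicate 1, and CEBPB without B2 replicate 2 or DMSO replicate 2. With library totals EIF2AK2 (adjusted p = 0.114) and GDF15 (0.0527) missed it, and with no filter CEBPB did (0.0527). LARS1, the leucyl-tRNA synthetase, was the 1 of 16 remaining synthetase genes called between numbers (edgeR adjusted p = 0.0490), beside the same 2.68%. It was at 140 CPM in DMSO replicate 2, 72 CPM in B2 replicate 2 and 26.7 to 40.0 CPM elsewhere. With the GC and length trend removed its adjusted p in that test was 0.0571, and 0 of the 16 were called between numbers, beside 5.06% of all genes. In number 3 against numbers 1 and 2 with the trend removed, 2 of the 16 were called lower and 0 higher. The shares of all genes were 2.19% and 4.55%. LARS1 was among those called lower, at -0.90 (edgeR adjusted p = 0.0492, and 0.198 with the trend kept). No gene of the XBP1 and ATF6 arm or of the other amino acid enzymes was called between numbers. With the GC and length trend removed, 1 gene of the XBP1 and ATF6 arm (DNAJB9, named after its values were seen) was called higher in number 3. Of the 13 other folate and methionine genes, 4 were called lower in number 3 in that setting and 0 higher.

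Within the DMSO group, the members split by base composition. The GC content of their longest transcripts ran from 35.4% to 65.5%, with a median of 51.9% beside 49.7% for all tested genes. In the 10 members under 45% GC with counts in both libraries, DMSO replicate 2 exceeded DMSO replicate 1 in 10 of 10, with a median ratio of 2.61 (range 1.91 to 4.28), and in the 30 members from 45% GC up it did so in 4, with a median ratio of 0.649. The low-GC members included VLDLR (4.28), XPOT (3.84), CEBPG (3.53) and MTHFD2 (3.28), and the high-GC members included PHGDH (0.48), SHMT2 (0.48) and SLC1A5 (0.50). ASNS, at 47.0% GC, had a ratio of 6.40. Between B2 replicates 2 and 1 the same median ratios were 1.25 in 11 members and 0.970 in 30. These are ratios of single libraries and carry no test.

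Across 40 members the Spearman correlation of GC content with the log2 ratio was -0.79 for DMSO replicate 2 over 1 and -0.61 for B2 replicate 2 over 1. Over 15958 tested genes the same correlations were -0.60 and -0.46, so the relation was shared by the whole table. All members of a comparison come from the same 2 libraries and are not replicates. For B2 over DMSO the correlation over members was -0.69 in the pair numbered 1, 0.56 in the pair numbered 2 and -0.12 in the pair numbered 3, so a low GC content went with a higher ratio of B2 over DMSO in pair 1 and with a lower one in pair 2. These ratios share their DMSO libraries with the ratio of DMSO replicate 2 over 1. After the GC and length trend was removed, the DMSO median ratios were 1.21 under 45% GC and 0.759 from 45% up, with ratios above 1 in 9 of 10 and 4 of 30 members. The B2 median ratios were then 1.03 and 1.04. DMSO replicate 1 was the highest library for 16 members and the lowest for 10, beside 4285 and 5662 of all 17224 tested genes. DMSO replicate 2 was the highest for 11 members and the lowest for 15, beside 5652 and 3975 of all tested genes. The summed level of the 41 genes was 6384 to 6705 CPM with B2, and 8780, 6620 and 6428 CPM in DMSO replicates 1, 2 and 3.

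**Figure D4:**
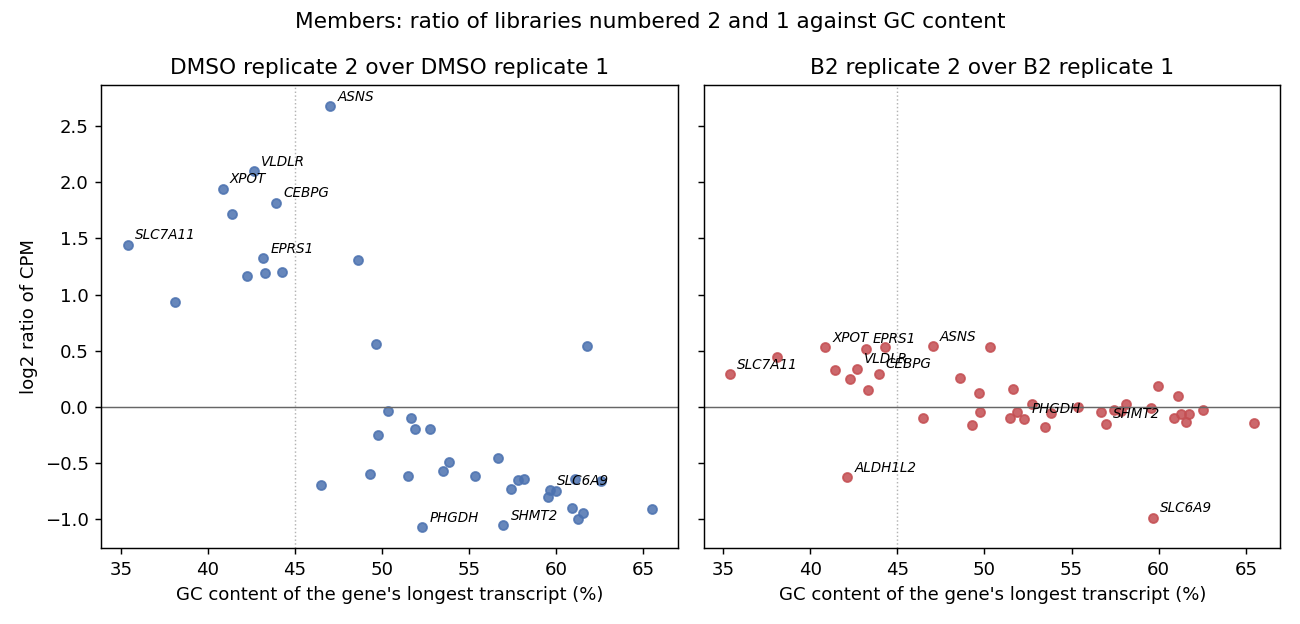
Log2 ratio of replicate 2 over replicate 1 for each member against the GC content of its longest transcript in percent, in separate panels for DMSO and B2, with a dotted line at 45% GC. In DMSO the points fall from a median ratio of 2.61 under 45% GC to 0.649 from 45% GC up, and in B2 from 1.25 to 0.970.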

How the data were processed

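Values were estimated counts per Ensembl gene, deposited by the authors as 1 table of 6 libraries. HISAT2 2.0.4 is named in the submitters' processing notes. How reads were counted, on which build and annotation and with which strand setting, is not given in the sources used here. Values were whole numbers, and the value 4 occurred 6465 times beside 3144 for 3 and 2022 for 5. Of 60612 identifiers, 60401 matched the names table and 187 were named from GENCODE 29 (GRCh38), which also gave exon length and GC content. All counts were fitted in R 4.3.3 with edgeR 4.0.16 (filterByExpr with a minimum count of 10 and a total of 15, TMM factors, quasi-likelihood tests, Benjamini-Hochberg adjustment over all tested genes at 0.05) and tested on simulated data. DESeq2 1.42.0, limma-voom (limma 3.58.1), other scalings and filters, counts divided by 4, a replicate block and each library left out were alternatives. GC and length trends were natural splines with 5 degrees of freedom per library, for the 98.8% of tested genes with both values; their use in the tests of replicate numbers was added after the data had been seen.

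Same-numbered libraries deviated together from their group means over all genes, with correlations of 0.21, 0.40 and 0.50 for numbers 1, 2 and 3, and each library correlated best with its own number. The numbers were therefore taken to pair the libraries, on the data alone, because their meaning is not stated in the labels. Members and gene lists were chosen with earlier results of these data known. Named genes were all members, and of each neighbouring list up to 2 genes with the smallest p for B2 and up to 2 with the smallest p for the numbers. Some results on neighbouring genes are not reported here.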

Additional observations from a re-analysis of the deposited data

How the results depend on the processing

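No setting called a member for B2 against DMSO. Over all genes the count for B2, 0 as reported, was 1 with DESeq2, 2 with the replicate block and the GC and length trend removed, and 0 to 1 with single libraries left out. The replicate block called 0 genes, 0 members among them, and changed no call. Counts between replicate numbers moved more. For all genes, 461 as reported, they were 956 with RLE factors, 266 with library totals, 1346 with the stricter filter (1 CPM in 3 libraries), 1673 with DESeq2, 1278 with limma-voom, 2379 with counts divided by 4, 871 with the GC and length trend removed, and 388 to 4124 with single libraries left out. For the members, in the same order, the counts were 2, 0, 6, 8, 4, 9 and 4, and 0 to 18 with single libraries left out. For number 3 against numbers 1 and 2 they were 4, 0, 5, 6, 4, 7 and 7, and 0 to 4. The stricter filter tested 38 members and the division by 4 tested 39. Over all genes, number 3 against numbers 1 and 2 called 575 as reported, and 770, 401, 691, 1011, 786, 1030 and 1162 in the same order of settings. These were out of 17224 tested genes, or 12870 with the stricter filter and 13948 with the division by 4. Of the genes called, 87.1% were higher in number 3 as reported, 73.6% with DESeq2, 67.5% with the trend removed and 92.8% with library totals. The cause of these moves was not tested.

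Of the 41 members, 37 changed the sign of their B2 estimate when some library was left out, and with single libraries left out the log2 fold changes ran from low to high as ATF4 -0.24 to 0.0395, ATF5 -0.63 to 0.18, CEBPG -0.48 to 0.42, DDIT3 -0.39 to 0.46, NUPR1 -0.45 to 0.73, TRIB3 -0.36 to 0.12, PHGDH -0.60 to 0.26, PSAT1 -0.0271 to 0.57, PSPH -0.18 to 0.0636, SHMT2 -0.48 to 0.17, MTHFD2 -0.10 to 0.83, ASNS -0.27 to 1.88, GPT2 -0.18 to 0.20, ALDH18A1 -0.30 to 0.0553, CTH -0.0344 to 0.48, CBS -0.43 to 0.0658, PCK2 -0.49 to 0.018, CHAC1 -0.39 to 0.54, SLC7A11 -0.40 to 1.14, SLC7A5 -0.37 to 0.0285, SLC3A2 -0.40 to 0.0392, SLC7A1 -0.0938 to 0.19, SLC1A5 -0.45 to 0.13, SLC38A2 -0.29 to 0.15, SLC6A9 -0.43 to 0.65, SESN2 -0.41 to 0.0298, DDIT4 -0.46 to 0.35, EIF4EBP1 -0.40 to 0.17, VLDLR -0.0101 to 1.14, AARS1 -0.30 to 0.0187, GARS1 -0.0166 to 0.67, SARS1 -0.30 to 0.0459, NARS1 -0.58 to 0.00711, CARS1 -0.0744 to 0.0721, EPRS1 -0.60 to 0.18, MARS1 -0.26 to 0.0354 and XPOT -0.66 to 0.48. Other settings turned the sign of CEBPG (limma-voom 0.000233, replicate block 0.021), DDIT3 (block with trend removed -1.27e-05, without number 3 -0.071), PSPH (library totals 0.022), GPT2 (library totals 0.067), CHAC1 (without number 3 -0.000615), DDIT4 (library totals 0.037, block with trend removed 0.020), STC2 (without number 3 -0.19) and CARS1 (block with trend removed -0.097). SLC7A1 turned to -0.00452 with RLE factors, to -0.00450 with DESeq2, to -0.00975 with limma-voom, to -0.00990 with the block and to -0.073 with the block and trend removed. Low counts limit the estimates of ALDH1L2, with 0 to 28 counts a library and 1 library with no count, and of SLC6A9, with 9 to 31. Both were tested in 14 of the 16 alternatives for B2, and STC2 in 15.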
